A study of Mus musculus with 7 samples.

Results

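The chemokines and chemokine receptors of the mouse kidney were described in LBR-null and wild-type (WT) animals. The members were all genes whose symbol begins with Ccl, Ccr, Cxcl or Cxcr followed by a number, which gave 53 of the 24328 genes in the deposited values. They comprised 36 ligands (23 CC and 13 CXC) and 17 receptors (11 CC and 6 CXC).

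Chemokines are small secreted proteins that guide the migration of leukocytes and other cells along concentration gradients, and they are grouped as CC or CXC by the spacing of conserved cysteines near their start. Their receptors are seven-helix membrane proteins that signal mainly through inhibitory G proteins, and most receptors bind several ligands. In kidney, tubule, stromal and endothelial cells make part of the ligands, whereas most receptors are carried by infiltrating or resident leukocytes.

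The lamin B receptor (LBR) spans the inner nuclear membrane and binds lamins and chromatin. Polyadenylated RNA was sequenced from kidneys of 3 LBR-null C57BL/6J mice, which carry 2 copies of the ic-J allele of Lbr (Lbr ic-J/ic-J, loss of function), and of 1 WT (Lbr +/+) littermate, all 4 weeks old. LBR-null mice 4001 and 4007 and WT mouse 4009 gave 2 libraries each and LBR-null mouse 4002 gave 1, each from pulverized right kidney. The mutation is carried in the germline, so all cells of the LBR-null animals had it. Values are normalized counts, that is, reads per gene divided by the size factor of the library. Each mouse entered as 1 replicate, by the mean of its libraries. Errors on LBR-null means are SD over the 3 mice, and WT has no such error, with 1 mouse.

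Libraries held 20694016 to 26333284 reads on genes, and 1 read was worth 0.787 to 1.15 normalized counts. Lbr RNA stood at 322, 340 and 471 in the LBR-null mice and 398 in the WT mouse, so its level does not test the genotype labels. Xist, of the inactive X chromosome, had 5785 (mouse 4001) and 9940 (mouse 4007) normalized counts against 65.3 (mouse 4002) and 35.5 (WT mouse), and Ddx3y, on the Y chromosome, had 141, 44.3, 1516 and 1284 in the same order. The labels give no sex. Mouse 4001 carried RNA of both genes, and whether samples were mixed was not tested. Its 2 libraries also differed more than those of the other mice, with a chi-square per gene of 14.997 against 2.73 for mouse 4007 and 2.53 for the WT mouse. Among the members with at least 10 reads in a mouse, its libraries differed (exact binomial test, two-sided, unadjusted p under 0.05) for 4 of 31 in mouse 4001, 3 of 31 in mouse 4007 and 6 of 35 in the WT mouse. In Xist and Ddx3y, mouse 4002 was the only LBR-null mouse whose levels resembled those of the WT mouse. How these differences act on the values below was not tested.

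Of the 53 members, 47 had a read in some library, 36 had a mean of at least 5 normalized counts over the 4 mice and were tested, and 11 had reads below that mean. The other 6 were listed at 0 in all 7 libraries. These were Cxcr1, Ccr1l1, Ccl21a, Ccl21b, Ccl21c and Ccl27b. The Ccl21 and Ccl27 genes are near-identical copies, so reads from one copy could have been dropped or credited to another, and their level is uncertain. Summed over all members, normalized counts were 7449, 6338 and 8134 in the LBR-null mice and 11060 in the WT mouse. The WT mouse was above all 3 LBR-null mice. One gene, Cxcl12, supplied 63.7% of the sum in the WT mouse and 69.4% in the LBR-null mean. Without Cxcl12 the sums were 2365, 2217 and 2119 against 4013, again with the WT mouse highest. The receptors alone summed to 516, 476 and 443 in the LBR-null mice and 482 in the WT mouse, so their total showed no such gap. It joins 2 groups on opposite sides. The CC receptors summed to 192, 139 and 150 in the LBR-null mice and 216.5 in the WT mouse. For the CXC receptors, which include Cxcr4, the sums were 324, 337 and 293 against 266. Of all reads on genes, members took 0.0321% to 0.0417% in LBR-null and 0.0530% and 0.0536% in WT, library by library.

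**Figure D1:**
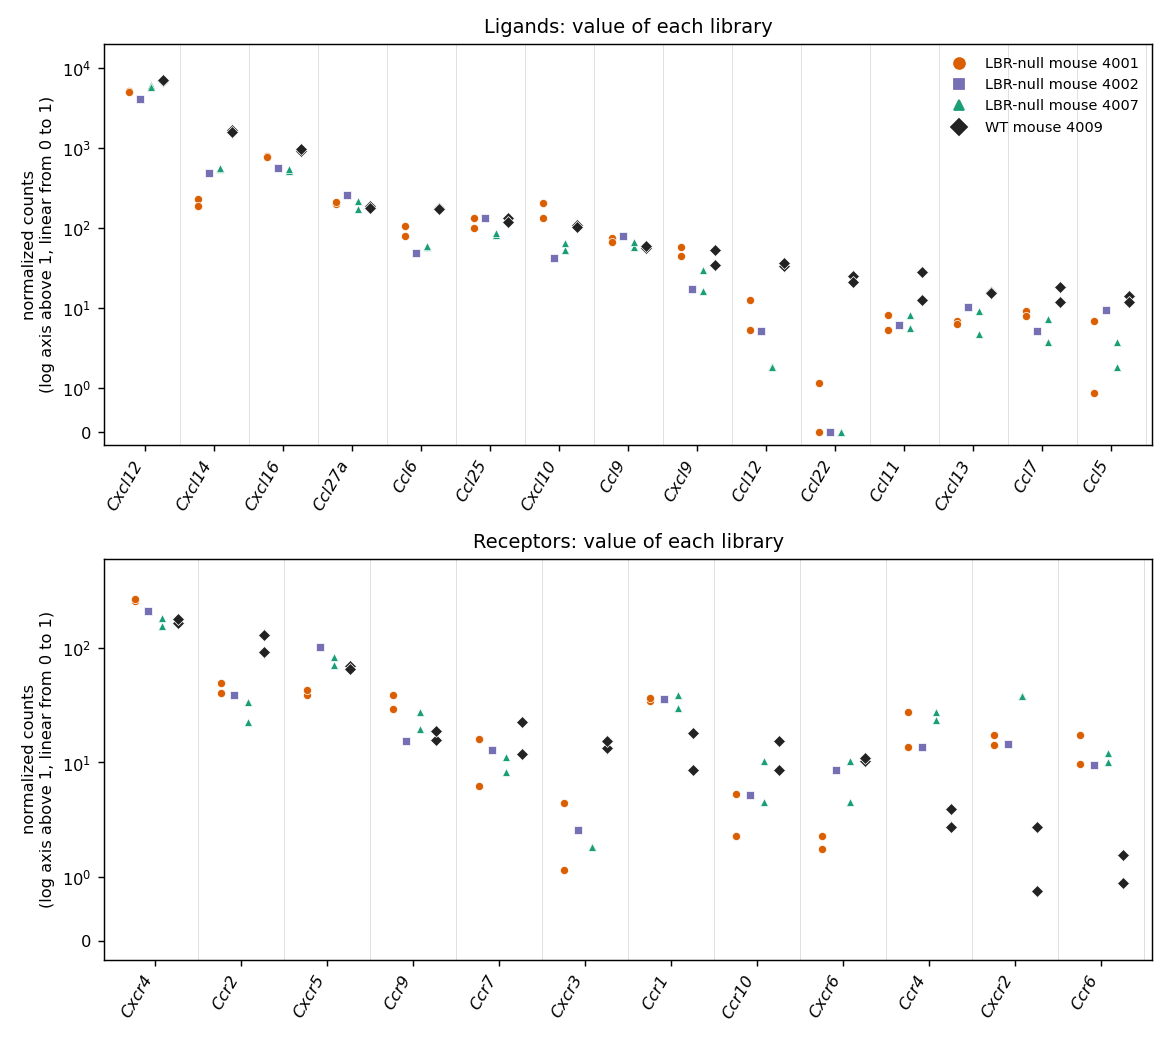
Normalized counts of each library (points, log axis above 1 and linear from 0 to 1) for 27 members named by level, by difference or as a receptor, ordered by the WT level and drawn apart for ligands and receptors. Cxcl14, Ccl6, Ccl12 and Ccl22 lie below both WT libraries in all 5 LBR-null libraries, Ccr2 and Cxcr3 do so among the receptors, and Ccr1, Ccr4, Cxcr2 and Ccr6 lie above.

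Cxcl12, a stromal and endothelial ligand that retains leukocytes and progenitors through Cxcr4, had the highest normalized counts of the members, at 862 normalized counts per kb of exon in the WT mouse and 620 ± 116 in the LBR-null mice. Its libraries read 5185 and 4983 for mouse 4001, 4121 for mouse 4002, 6159 and 5871 for mouse 4007, and 6935 and 7158 for the WT mouse. All 5 LBR-null libraries were below both WT libraries, with a log2 difference of -0.49 ± 0.31 (SE; limma with Benjamini-Hochberg adjustment, adjusted p = 0.444). Its receptor Cxcr4 was at 258, 266, 209, 181 and 156 in the LBR-null libraries and 165 and 178 in the WT libraries, and the groups overlapped. Ackr3, the scavenging receptor of Cxcl12, lies outside the symbol rule and was at 885 to 1068 in the LBR-null libraries and 1547 and 1569 in the WT libraries. Ligand and scavenger were thus both below WT in every LBR-null library, and Cxcr4 was not.

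Per kb of exon, the WT mouse had Cxcl14 above Cxcl12 (905 and 862), whereas in the LBR-null mice Cxcl12 (620 ± 116) stood above Cxcl14 (227 ± 99.2) and Cxcl16 (206 ± 46.1), and the last pair did not differ beyond its spread. Cxcr4 was the most abundant receptor per kb in both groups, at 118 ± 26.1 in the LBR-null mice and 94.8 in the WT mouse.

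Cxcl14, an epithelial and stromal ligand that attracts monocytes and dendritic cells, lies on chromosome 13 of mm9 from 56390008 to 56397912 on the minus strand. Its libraries read 230 and 187 for mouse 4001, 482 for mouse 4002, 542 and 558 for mouse 4007, and 1692 and 1606 for the WT mouse. The highest LBR-null library was far below the lower WT library, and mouse 4001 was lowest. The mean was 414 ± 181 (SD, n = 3) against 1649, 3.99-fold lower, with a log2 difference of -2.11 ± 0.55 (limma with Benjamini-Hochberg adjustment, adjusted p = 0.124). Under DESeq2 with Benjamini-Hochberg adjustment it passed the threshold (log2 difference -2.02, adjusted p = 0.00723), and likewise in limma on the 7 libraries with the mouse as a random effect (adjusted p = 0.016). Over all alternatives its log2 difference ran from -2.37 to -1.68 and its adjusted p from 0.00723 to 0.269.

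Cxcl16, a membrane-anchored ligand shed from epithelium and macrophages, was at 797, 768, 559, 515 and 539 in the LBR-null libraries and 917 and 963 in the WT libraries. All LBR-null libraries were below WT, with a log2 difference of -0.62 ± 0.31 (limma with Benjamini-Hochberg adjustment, adjusted p = 0.341). Its exons overlap Zmynd15 on the other strand, and the strand setting of the counting is not given in the sources used here, so reads of that gene cannot be told apart. Its receptor Cxcr6, found on natural killer and memory T cells, was at 2.30 and 1.77 for mouse 4001, 8.60 for mouse 4002, 10.2 and 4.56 for mouse 4007, and 10.2 and 10.9 for the WT mouse, and the groups touched.

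Across the family no member passed the main test, an adjusted p under 0.05 with at least a 2-fold difference in limma. Neither did any of the 17283 genes tested (0.0% called in each direction). The fit has 2 residual degrees of freedom and assumes for the lone WT mouse the spread seen among the LBR-null mice. A permutation of 3 mice against 1 cannot go below p = 0.5 (exact, two-sided). At an unadjusted p under 0.05, limma gave 4 members higher in LBR-null (background 10.7%) and 8 lower (background 8.05%), of 36 tested. edgeR called none of the members higher (background 0.00579%) or lower (background 0.156%), with 4 higher (background 10.3%) and 7 lower (background 8.88%) at an unadjusted p under 0.05. At an unadjusted p under 0.05, DESeq2 gave 4 higher (background 10.6%) and 5 lower (background 8.42%). It called 1 higher (Cxcr2, background 3.24%) and 2 lower (Cxcl14 and Ccr2, background 3.48%) of the 29 members to which it gave an adjusted p. Limma on the 7 libraries called none higher (background 2.0%) and Cxcl14 lower (background 2.9%), with 3 members higher (background 10.8%) and 7 lower (background 10.8%) at an unadjusted p under 0.05. Without mouse 4001, limma called 1 member higher (Cxcr2, background 2.94%) and 6 lower (among them Cxcl14, Ccl12, Ccl6, Ccl22 and Ccr2, background 3.83%), and without mouse 4002 it called Cxcr2 higher (background 1.96%) and Ccl22 lower (background 1.66%). The values that follow are therefore read as differences against the spread of the mice, gene by gene.

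Counted by size alone, 10 of the 47 members with reads were at least 2-fold higher in the LBR-null mean (background over all genes above 0, 22.7%) and 16 were at least 2-fold lower (background 8.8%). Among the 36 members with a mean of at least 5, the numbers were 4 higher (background 14.5%) and 11 lower (background 7.04%). All 5 LBR-null libraries lay above both WT libraries for 5 of the 47 members with reads (background 22.2%) and below for 15 (background 21.4%), and for 4 (background 25.5%) and 14 (background 25.7%) of the 36. With both criteria, 4 members were higher (background 11.7%) and 10 lower (background 6.81%). The former were Cxcr2, Ccr4, Ccr6 and Ccr1, and the latter included Cxcl14, Ccl6, Ccr2, Ccl12, Ccl22, Ccl11, Ccl7, Cxcr3 and Ccl5. All 4 on the higher side were receptors, and 7 of the 10 on the lower side were ligands. Of the 36 tested members, 23 were ligands and 13 receptors, so most were ligands in any case. Receptors lay on both sides. For 6 tested members one group was under 5, so these passed the filter on low values through the group in which they were high. They were Cxcr2, Ccr4, Ccr6 and Cxcl17, under 5 in the WT mouse, and Ccl22 and Cxcr3, under 5 in the LBR-null mean. Of the members on the higher side, only Ccr1 had at least 5 in both groups. In whole kidney, fewer cells of a type and less RNA per cell cannot be told apart.

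The median log2 difference over the 36 members was -0.60, with values of -0.43, -0.40 and -0.61 for mice 4001, 4002 and 4007, each against the WT mouse. Over all 17283 genes tested the median was 0.007. Ligands had a median of -0.65. Receptors had a median of 0.02 over the limma estimates and of -0.58, -0.16 and -0.03 for the single mice, so the sign differed between these.

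**Figure D2:**
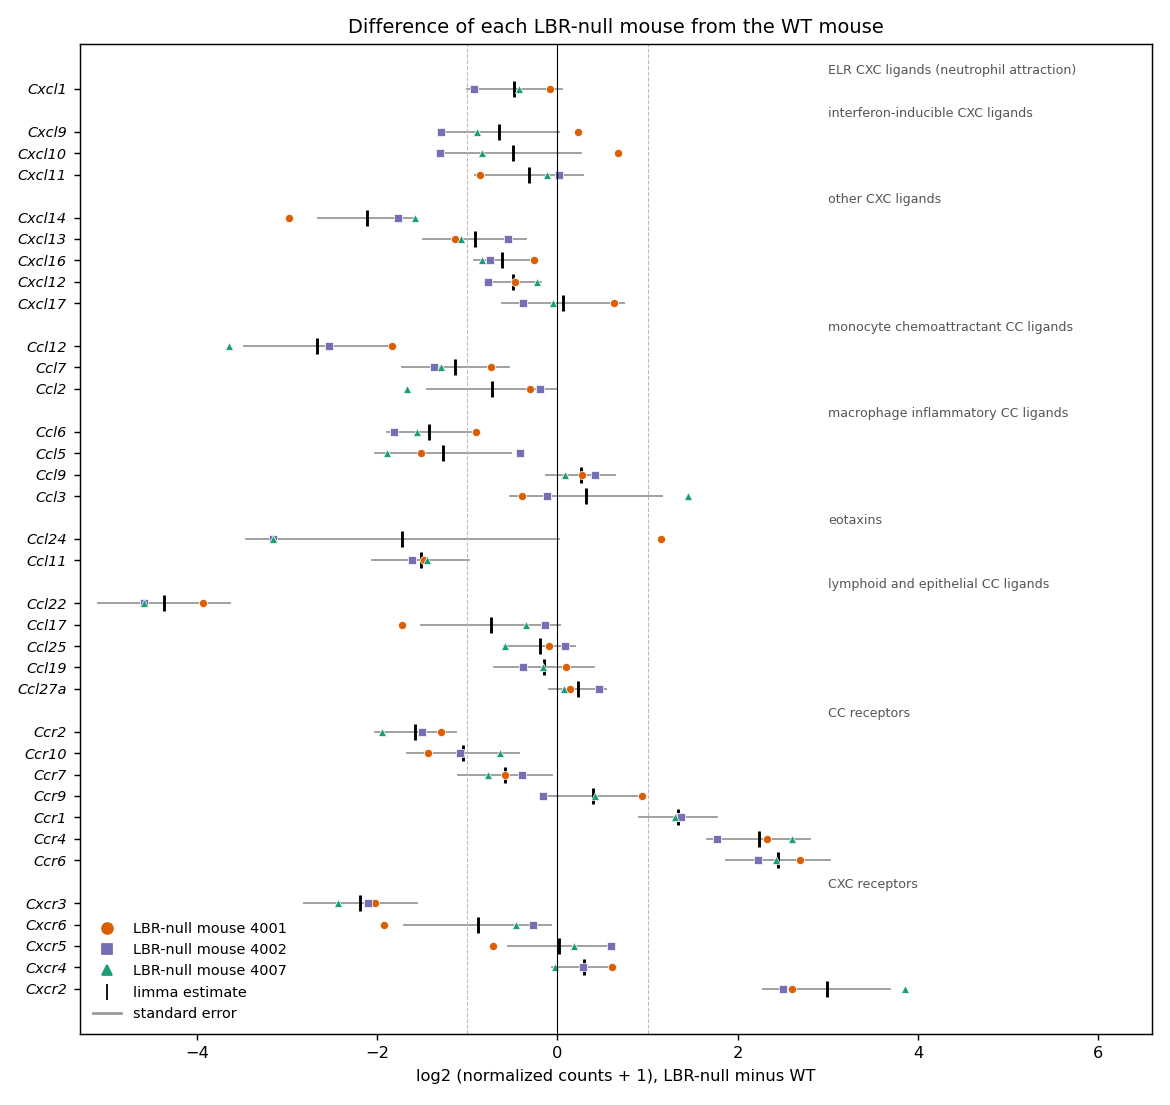
Difference of each LBR-null mouse from the WT mouse on the log2 scale of normalized counts + 1 (x axis) for 35 members with a mean of at least 5, grouped by role, with the limma estimate (black tick) and its standard error (grey line). Ccl22 has the lowest estimate and Cxcr2 the highest, and the 3 mice lie on both sides of 0 for Cxcl10, Ccl24 and Cxcr5.

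The monocyte chemoattractant ligands Ccl2, Ccl7, Ccl8 and Ccl12 recruit Ccr2-bearing monocytes. Their summed normalized counts were 39.3, 31.8 and 15.2 in the LBR-null mice and 77.2 in the WT mouse. Ccl12 was at 12.6 and 5.32 for mouse 4001, 5.16 for mouse 4002, 1.86 and 1.82 for mouse 4007, and 33.1 and 36.2 for the WT mouse. No LBR-null library came near WT, and the mean was 5.33 ± 3.57 against 34.6 (log2 difference -2.67 ± 0.81, limma with Benjamini-Hochberg adjustment, adjusted p = 0.158). Ccl7 was at 6.42 ± 1.89 against 14.9 and was below WT in all 5 libraries, although without the second WT library its difference was 1.84-fold. Ccl2, which lies outside the rule for named genes and is given to complete the group, overlapped (4.56 to 24.1 in the LBR-null libraries, 22.1 and 23.5 in the WT libraries), as did Ccl8 (0 to 3.55 against 1.57 and 8.14).

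Ccr2, the receptor by which inflammatory monocytes leave the bone marrow, was at 40.2 and 49.7 for mouse 4001, 38.7 for mouse 4002, 22.4 and 33.7 for mouse 4007, and 130 and 92.3 for the WT mouse. Every LBR-null library was below the lower WT library. The mean was 37.2 ± 8.55 against 111, 2.98-fold lower, with a log2 difference of -1.58 ± 0.45 (limma with Benjamini-Hochberg adjustment, adjusted p = 0.142), and DESeq2 gave an adjusted p of 0.0442 with the same adjustment.

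Of the macrophage inflammatory ligands, Ccl6 and Ccl9 are made constitutively by myeloid cells. Ccl6 was at 106 and 79.9 for mouse 4001, 49.0 for mouse 4002, 57.7 and 59.2 for mouse 4007, and 176 and 173 for the WT mouse. All LBR-null libraries were below WT, at a mean of 66.8 ± 23.0 (log2 difference -1.42 ± 0.46, limma with Benjamini-Hochberg adjustment, adjusted p = 0.176). Ccl9, which lies beside Ccl6 on chromosome 11, was at 57.7 to 78.2 in the LBR-null libraries and 56.7 and 59.7 in the WT libraries, and the groups overlapped. Ccl5, a T cell and platelet product that binds Ccr1 and Ccr3, was at 0.887 to 9.46 in the LBR-null libraries and 14.2 and 11.8 in the WT libraries, a mean 2.41-fold lower. The difference was 1.94-fold without mouse 4007 and 3.89-fold without mouse 4002.

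Markers of myeloid cells were read in the same libraries. Of 10 macrophage markers, all with a mean of at least 5, 7 were below WT in every LBR-null library (against 25.7% of all genes with a mean of at least 5) and 1 (Lyz2) was above (against 25.5%), the median log2 difference was -0.64, and none was at 0. Their sum was 4294 to 4590 in the LBR-null mice and 5622 in the WT mouse. The pan-leukocyte gene Ptprc was at 146 to 224 in the LBR-null libraries and 264 and 230 in the WT libraries. Of 5 dendritic cell markers, Itgax (5.47 to 13.3 against 88.2 and 58.8) and Cd209a (1.72 to 14.9 against 63.0 and 53.4) were far below WT, Clec9a was at 51.7 to 97.5 against 103 and 98.6, and Flt3 was above WT (34.4 to 57.7 against 22.8 and 20.8). Zbtb46 overlapped (105.8 to 165 against 110.2 and 109). In all, 3 of the 5 were below WT in every LBR-null library (against 25.7%) and 1 above (against 25.5%). The dendritic list summed to 236 to 310 in the LBR-null mice and 364 in the WT mouse. The part of these cells in the chemokine values was not tested.

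Ccl22, a ligand of Ccr4 made by dendritic cells and macrophages, had 55 WT reads (25.2 and 20.8 normalized counts per library) and 1 read in the 5 LBR-null libraries together, in the first library of mouse 4001. The ratio of LBR-null to WT reads per library depth was 0.0081 (95% exact interval 0.000201 to 0.0471, counting error only). Limma gave a log2 difference of -4.37 ± 0.73 with an adjusted p of 0.0906 after Benjamini-Hochberg adjustment, the lowest of any member, and it passed the threshold without mouse 4001 (adjusted p = 0.0295, limma with Benjamini-Hochberg adjustment) and without mouse 4002 (adjusted p = 0.0229). Ccl17, the other ligand of Ccr4 and the neighbour of Ccl22 on chromosome 8, falls outside the rule for named genes and was chosen after its values were seen. It was at 2.66 to 12.9 in the LBR-null libraries and 14.2 and 14.5 in the WT libraries, that is, below WT in all 5 libraries but 1.56-fold lower in the mean.

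Ccr4 itself, a receptor of T helper type 2 and regulatory T cells, was on the opposite side. It was at 13.8 and 27.5 for mouse 4001, 13.8 for mouse 4002, 23.3 and 27.3 for mouse 4007, and 3.94 and 2.71 for the WT mouse. Every LBR-null library was above WT, at a mean of 19.9 ± 5.81 against 3.33, 5.99-fold higher (log2 difference 2.23 ± 0.57, limma with Benjamini-Hochberg adjustment, adjusted p = 0.123). Ligand and receptor of this pair thus stood on opposite sides of WT.

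Ccr6, the receptor of Ccl20 on B cells, Th17 cells and dendritic cells, was at 17.2 and 9.76 for mouse 4001, 9.46 for mouse 4002, 12.1 and 10.03 for mouse 4007, and 1.57 and 0.905 for the WT mouse. The WT libraries held 3 reads in all, against 61 in the LBR-null libraries, a ratio of 9.06 (95% exact interval 2.96 to 45.1), and limma gave a log2 difference of 2.45 ± 0.58 with an adjusted p of 0.115 after Benjamini-Hochberg adjustment. Ccl20, outside the rule for named genes, had 0 reads in the LBR-null libraries and 2 in the WT libraries. Of 8 T cell markers, Cd3e was at 18.1 to 35.5 in the LBR-null libraries and 14.96 and 8.14 in the WT libraries, Cd8a at 24.1 to 69.6 against 134 and 136, and 4 in all were below WT in every LBR-null library (against 25.7% of all genes with a mean of at least 5). The T cell list summed to 181 to 223 in the LBR-null mice and 294 in the WT mouse, and without Cd8a to 153.1 to 156.5 and 158.9. The 4 B cell markers summed to 79.0 to 147 and 154. No marker of either list was at 0, and their part in Ccr4 and Ccr6 was not tested.

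Cxcr2, the main receptor for neutrophil recruitment, lies on chromosome 1 of mm9 from 74200563 to 74207812. It was at 17.2 and 14.2 for mouse 4001, 14.6 for mouse 4002, 39.1 and 38.3 for mouse 4007, and 0.787 and 2.71 for the WT mouse. Every LBR-null library was above WT, and mouse 4007 was well above the other two. Reads numbered 132 in the LBR-null libraries and 4 in the WT libraries, a ratio of 14.7 (95% exact interval 5.61 to 54.8), and the fold of the means was 13.1, or 8.66 without mouse 4007. The WT libraries held 1 and 3 of those reads, and the fold was 8.48 without the first of them and 29.2 without the second. Limma gave a log2 difference of 2.99 ± 0.70 with an adjusted p of 0.115 after Benjamini-Hochberg adjustment. DESeq2 gave an adjusted p of 0.0243, and limma passed the threshold without mouse 4001 (adjusted p = 0.0434) and without mouse 4002 (adjusted p = 0.0482), each with the same adjustment.

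Neutrophil markers were higher in the same mice. All 10 of the listed markers present in the files were at least 2-fold higher in the LBR-null mean (against 22.7% of all genes above 0), 7 of them in every LBR-null library (against 22.2%), and the median log2 difference of the 9 with a mean of at least 5 was 3.31. Of those 9, Retnlg, Camp, Mpo, Ngp and Mmp8 were under 5 in the WT mouse, so they passed this filter through the LBR-null mice. Elane, with a mean of 4.62, did not pass it. Ltf, a granule protein, was an exception in mouse 4002, at 10.3 against 23.6 and 10.9 in the WT libraries. The list summed to 1139, 463 and 2658 for mice 4001, 4002 and 4007 and to 108 for the WT mouse, so mouse 4007 was highest for the markers as for Cxcr2. S100a9, a calcium-binding protein of granulocytes, was at 136 to 951 in the LBR-null libraries and 11.0 and 5.43 in the WT libraries, and Retnlg at 44.7 to 358 against 0.787 and 0. Retnlg, Camp and Mpo were each at 0 in 1 WT library, and Elane in 1 LBR-null library. Their part in Cxcr2 was not tested. Among the ligands of Cxcr2, Cxcl1, named here after its values were seen, was at 16.3 to 35.6 in the LBR-null libraries and 25.99 and 38.0 in the WT libraries. The groups overlapped. Of the other ligands with a neutrophil-attracting motif, Cxcl5, Cxcl3 and Cxcl15 had at most 6 reads each over all libraries, and Cxcl2 had 22 reads in the LBR-null libraries, 17 of them in 1 library, and none in the WT libraries. Ppbp, a platelet ligand of Cxcr2 that lies outside the symbol rule, was below WT in every LBR-null library (6.52 to 11.5 against 26.8 and 34.4), 3.16-fold lower in the mean.

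**Figure D3:**
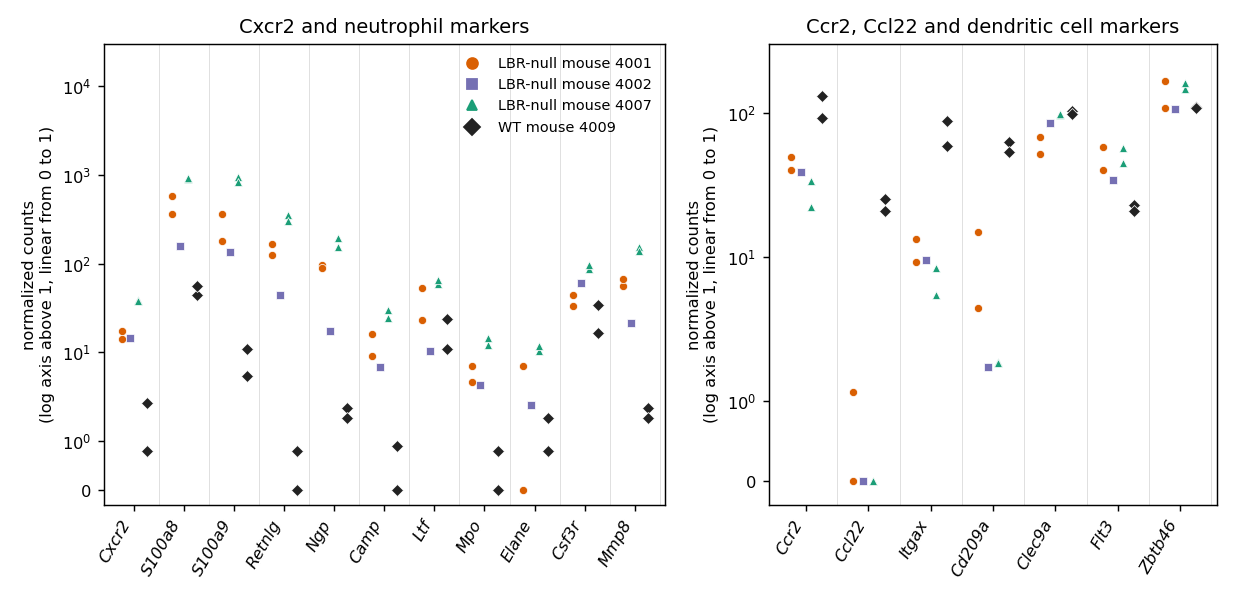
Normalized counts of each library (log axis above 1, linear from 0 to 1) for Cxcr2 with 10 neutrophil markers (left) and for Ccr2 and Ccl22 with 5 dendritic cell markers (right). Mouse 4007 is highest of the 4 mice for Cxcr2 and S100a8, and Itgax and Cd209a lie below both WT libraries in all LBR-null libraries together with Ccr2 and Ccl22, whereas Flt3 lies above.

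Ccr1, a receptor of neutrophils and monocytes for Ccl3, Ccl5, Ccl6 and Ccl9, was at 34.5 and 36.4 for mouse 4001, 36.1 for mouse 4002, 39.1 and 30.1 for mouse 4007, and 8.66 and 18.1 for the WT mouse. The LBR-null mice were close to one another (35.4 ± 0.758) and all libraries were above WT, 2.64-fold higher in the mean (log2 difference 1.34 ± 0.44, limma with Benjamini-Hochberg adjustment, adjusted p = 0.177). The WT libraries differed between themselves, so the fold was 1.96 without the first of them and 4.08 without the second. Ccr1 lies in a cluster of 7 receptor genes on chromosome 9 of mm9, from 123587557 to 124062438. Of the 6 with reads, 3 were lower and 3 higher in the LBR-null mean, with Ccr1 above WT and Ccr2 below WT in every LBR-null library.

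The CC ligands on chromosome 11 from 81849073 to 82119192 (Ccl2, Ccl7, Ccl11, Ccl12, Ccl8 and Ccl1) were lower in the LBR-null mean for 6 of 6 genes, 5 of them at least 2-fold (background over all genes above 0, 8.8%) and 3 in every library (background 21.4%). Ccl1 had 2 reads in the LBR-null libraries and 5 in the WT libraries. The other CC ligand cluster on this chromosome (Ccl5, Ccl9, Ccl6, Ccl3 and Ccl4) had 3 genes lower and 2 higher in the LBR-null mean. Of its genes, 3 were at least 2-fold lower (background 8.8%) and 3 were below WT in every library (background 21.4%). Ccl11, the eosinophil attractant eotaxin, was at 5.32 to 8.20 in the LBR-null libraries and 28.4 and 12.7 in the WT libraries. The mean was 3.14-fold lower (log2 difference -1.52 ± 0.54, limma with Benjamini-Hochberg adjustment, adjusted p = 0.206) and 1.94-fold lower without the first WT library.

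The interferon-inducible ligands Cxcl9, Cxcl10 and Cxcl11 bind Cxcr3 on activated T and natural killer cells. Cxcl10 was at 203 and 134 for mouse 4001, 42.1 for mouse 4002, 53.1 and 63.8 for mouse 4007, and 108 and 103 for the WT mouse. Mouse 4001 was above WT and the other LBR-null mice below, so the mean of 89.7 ± 68.8 against 106 did not differ beyond its spread, and its exons overlap Art3 on the other strand. Cxcl9 was at 16.4 to 57.7 against 33.9 and 53.4 and overlapped as well. Cxcl11, outside the rule for named genes, was at 6.89 to 15.5 against 12.6 and 14.5 and also overlapped. The gene models used here hold no coding transcript for Cxcl11, so its RNA cannot be read as a ligand. Cxcr3 was at 1.15 and 4.44 for mouse 4001, 2.58 for mouse 4002, 1.86 and 1.82 for mouse 4007, and 13.4 and 15.4 for the WT mouse. All LBR-null libraries were below WT, with 13 reads in the LBR-null libraries and 34 in the WT libraries (log2 difference -2.19 ± 0.63, limma with Benjamini-Hochberg adjustment, adjusted p = 0.143). The receptor was thus below WT in every library while Cxcl9 and Cxcl10 were not. Of 5 natural killer cell markers, 3 were at least 2-fold higher in the LBR-null mean (against 22.7% of all genes above 0) and 1 was lower (against 8.8%). Ncr1 (2.66 to 9.12 against 0.787 and 1.81) and Gzma (3.44 to 14.9 against 1.57 and 1.81) were above WT in every LBR-null library, and Nkg7 (0 to 9.46 against 13.4 and 14.5) was below. The list summed to 25.8 to 32.7 in the LBR-null mice and 22.8 in the WT mouse, and its part in Cxcr3 and Cxcr6 was not tested.

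Cxcl13, the B cell attractant of lymphoid follicles, was at 6.89 and 6.21 for mouse 4001, 10.3 for mouse 4002, 4.66 and 9.12 for mouse 4007, and 15.8 and 15.4 for the WT mouse. All LBR-null libraries were below WT, at 7.92 ± 2.08 against 15.6 (log2 difference -0.92 ± 0.57, limma with Benjamini-Hochberg adjustment, adjusted p = 0.439). Its receptor Cxcr5 was at 40.8, 102 and 77.0 in the LBR-null mice and 67.6 in the WT mouse, and the groups overlapped. The remaining receptors also overlapped. Ccr7, which draws lymphocytes and dendritic cells to lymph nodes, was at 11.2 ± 1.61 against 17.2, Ccr10, a skin-homing receptor, at 5.46 ± 1.81 against 12.0, and Ccr9, a gut-homing receptor whose exons overlap other genes, at 24.4 ± 9.38 against 17.4. The ligands Ccl25 (112 ± 25.2 against 126), which binds Ccr9, and Ccl27a (217 ± 32.9 against 184), which binds Ccr10 and overlaps Il11ra1 on the other strand, overlapped too.

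The study classes genes by CpG islands (CGI), stretches rich in the CpG dinucleotide. It combined islands defined by sequence with regions found experimentally by affinity purification. Only a sequence criterion was used here, so the classes can differ from those of the study. Islands were searched here in the mm9 sequence, and genes with an island no more than 500 bases from a start were CGI+, and those without one up to the end of the gene body were CGI-. Of the members 43 were CGI- (81.1%, against 39.8% of coding genes) and 7 were CGI+ (13.2% against 55.4%). The CGI+ members were Cxcl12, Cxcl14, Cxcl16, Ccl25, Ccl27a, Ccl27b and Ccr9. They include the 3 most abundant ligands. Among CGI- members with reads, 10 of 38 were at least 2-fold higher in the LBR-null mean (background of CGI- genes above 0, 39.5%) and 14 were at least 2-fold lower (background 14.4%). Among CGI- members with a mean of at least 5, 4 of 27 were higher (background 27.8%) and 9 were lower (background 14.0%). Of the 6 CGI+ members with reads, none was 2-fold higher (background 8.34%) and Cxcl14 was 2-fold lower (background 5.76%). All 6 had a mean of at least 5, where the backgrounds are 6.79% and 5.13%.

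**Figure D4:**
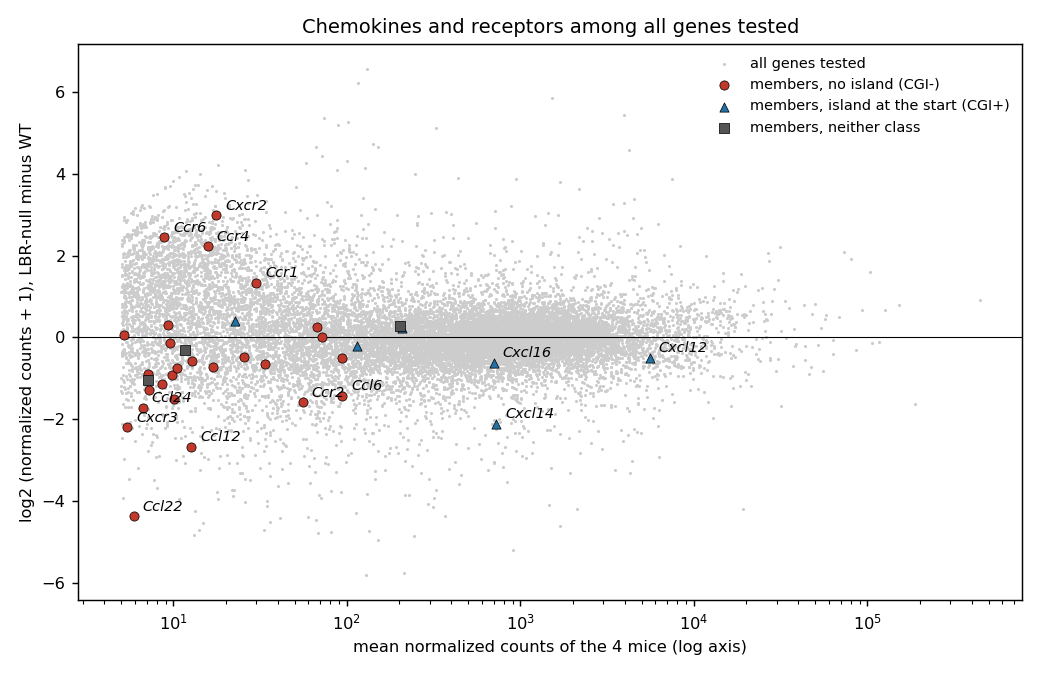
Difference between LBR-null and WT on the log2 scale of normalized counts + 1 (y axis) against the mean normalized counts of the 4 mice (x axis, log) for all 17283 genes tested (grey) and 35 members, marked by CpG island class. CGI- members lie at low levels on both sides of 0, from Ccl22 to Cxcr2, and Cxcl12, Cxcl14 and Cxcl16 are the CGI+ members at high levels.

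The sequences just upstream of the start show the contrast between CpG-rich and CpG-poor members, for the 2 ligands with the highest mean counts and for 4 members whose libraries did not overlap between the groups. RefSeq (GRCm38.p6) gave windows for 37 members, and the 250 bases before the start are printed 5′ to 3′ with CG in capitals. They are Cxcl12 (chr6:117168285-117168534, plus strand), Cxcl14 (chr13:56296552-56296801, minus strand), Ccl22 (chr8:94745434-94745683, plus strand), Ccl12 (chr11:82101595-82101844, plus strand), Ccr2 (chr9:124101933-124102182, plus strand) and Cxcr2 (chr1:74153744-74153993, plus strand).
Cxcl12: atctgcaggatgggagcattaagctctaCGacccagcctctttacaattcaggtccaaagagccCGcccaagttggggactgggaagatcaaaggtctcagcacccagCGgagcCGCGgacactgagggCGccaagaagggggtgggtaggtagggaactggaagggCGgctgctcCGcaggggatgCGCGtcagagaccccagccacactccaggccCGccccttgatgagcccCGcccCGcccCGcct
Cxcl14: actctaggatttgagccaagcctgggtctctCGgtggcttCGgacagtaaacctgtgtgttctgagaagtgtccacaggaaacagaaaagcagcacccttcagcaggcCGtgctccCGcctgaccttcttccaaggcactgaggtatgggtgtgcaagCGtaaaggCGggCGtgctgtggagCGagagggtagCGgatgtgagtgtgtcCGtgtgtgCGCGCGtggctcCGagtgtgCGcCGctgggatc
Ccl22: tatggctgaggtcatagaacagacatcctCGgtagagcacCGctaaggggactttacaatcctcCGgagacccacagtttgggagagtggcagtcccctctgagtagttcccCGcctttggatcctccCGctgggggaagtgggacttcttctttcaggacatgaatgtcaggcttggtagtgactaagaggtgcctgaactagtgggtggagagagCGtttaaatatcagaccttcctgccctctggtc
Ccl12: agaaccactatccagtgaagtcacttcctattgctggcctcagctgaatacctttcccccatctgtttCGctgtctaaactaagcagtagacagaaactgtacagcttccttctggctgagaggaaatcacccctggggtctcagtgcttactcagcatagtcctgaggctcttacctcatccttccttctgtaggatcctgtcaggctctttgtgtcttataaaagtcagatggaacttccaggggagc
Ccr2: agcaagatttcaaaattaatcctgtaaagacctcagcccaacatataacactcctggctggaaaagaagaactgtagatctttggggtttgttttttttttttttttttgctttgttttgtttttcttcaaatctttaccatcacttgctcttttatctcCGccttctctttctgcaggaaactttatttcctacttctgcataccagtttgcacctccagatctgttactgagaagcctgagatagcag
Cxcr2: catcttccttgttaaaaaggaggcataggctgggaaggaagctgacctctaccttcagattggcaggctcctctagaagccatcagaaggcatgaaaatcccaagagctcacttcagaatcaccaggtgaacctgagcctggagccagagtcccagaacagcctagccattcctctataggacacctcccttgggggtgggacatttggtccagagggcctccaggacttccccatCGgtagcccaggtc

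These windows hold 14 CG dinucleotides in Cxcl12, 16 in Cxcl14, 6 in Ccl22, and 1 each in Ccl12, Ccr2 and Cxcr2. CG reads the same on both strands. Of the 44 member windows, 24 (54.5%) held at most 3, against 37.8% of all windows of the same length, and the medians were 3 and 6. Cxcl14, on the CpG-rich side, and Ccl12 and Ccr2, on the CpG-poor side, were all below WT, and Cxcr2, as poor as Ccr2, was above.

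Chemokines and receptors outside the symbol rule were read as a list of 15. Of these, 7 were at least 2-fold lower in the LBR-null mean and none was 2-fold higher (against 8.8% and 22.7% of all genes above 0), 8 were below WT in every LBR-null library and 1 was above (against 21.4% and 22.2%), and the median log2 difference of the 13 with a mean of at least 5 was -0.87. The 1 above was Mif, a macrophage cytokine, at 8846 to 12140 in the LBR-null libraries and 7095 and 7035 in the WT libraries. Cx3cl1, the membrane-bound ligand fractalkine, was at 454 to 825 in the LBR-null libraries and 2309 and 2319 in the WT libraries, and its receptor Cx3cr1, of resident macrophages, at 13.8 to 102 against 139 and 120. Xcr1, a receptor of cross-presenting dendritic cells, was at 0.931 to 5.32 against 18.9 and 23.5. Cd74, a receptor of Mif and chaperone of MHC class II, was at 273 to 569 against 2504 and 2652. Both ligand and receptor of the fractalkine pair were thus below WT in every library.

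Downstream, 14 genes of receptor signalling had a median of -0.20, with 2 at least 2-fold higher and 1 lower (against 14.5% and 7.04% of all genes with a mean of at least 5). Rac2, the leukocyte GTPase of cell migration, was at 52.5 to 93.2 in the LBR-null libraries and 128 and 148 in the WT libraries. Of 11 regulators of chemokine transcription, 2 were at least 2-fold lower and none higher (median -0.23), against the same 7.04% and 14.5%. Irf7, a regulator of interferon genes, was at 264 to 391 in the LBR-null libraries and 701 and 723 in the WT libraries. Of 5 chemokine-cleaving enzymes 2 were 2-fold lower (Mmp9 and Mmp12, background 7.04%) and 1 higher (Mmp8, background 14.5%). DESeq2 with Benjamini-Hochberg adjustment called Cd74, Cx3cl1 and Irf7 lower (background 3.48%) and Mmp8, also a neutrophil marker, higher (background 3.24%). Neither limma, the main test, nor edgeR called any of them. Their log2 differences in limma were -2.78 for Cd74, -1.87 for Cx3cl1, -1.10 for Irf7 and 4.26 for Mmp8.

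Markers of other cell types lay on both sides of WT, where 25.7% of all genes with a mean of at least 5 were below WT in every LBR-null library and 25.5% above. The 3 adipocyte markers were below WT in every LBR-null library (summed 22.4 to 99.3 in the LBR-null mice and 423 in the WT mouse), as were the 4 proximal tubule markers (28830 to 39220 and 98390). The 5 endothelial markers had a median log2 difference of -0.01, with Cdh5 below WT in every library (1603 to 2051 against 2720 and 2683). The 4 fibroblast and pericyte markers were mixed. Col1a1 was 5.62-fold lower and Pdgfrb was below WT in every library (1293 to 2606 against 2729 and 2639), whereas Dcn was 2-fold higher in the mean and Pdgfra overlapped. Both podocyte markers were below WT in every library. The 4 markers of the loop, distal tubule and collecting duct had a median of 0.13, with Slc12a1 above WT in every library, and the 4 lymphatic vessel markers a median of 0.03. None of these markers was at 0, and their part in Cxcl12, Cxcl14 and Cxcl16 was not tested.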

How the data were processed

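Kidney RNA-seq values were analysed for 3 LBR-null mice and 1 WT mouse. Reads had been aligned by the authors (STAR 2.6.0, mm9). They deposited, per library, a signal per gene symbol, the counts divided by the size factor from DESeq2 1.25.1. The counting program and its annotation are not given in the sources used here. The deposited values were whole multiples of a step (100% of values, within 0.01 read), so reads were recovered.

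Libraries were averaged within a mouse. limma 3.58.1 (R 4.3.3, trended) was run on log2(normalized counts + 1) where the mean over the mice was 5 or more, adjusted by Benjamini-Hochberg over all 17283. A fold on this scale understates the change of low genes. edgeR 4.0.16 and DESeq2 1.42.0 on reads summed per mouse were alternatives. In simulated counts for 3 LBR-null mice against 1 WT mouse (18301 genes, dispersion 0.1), limma called 42 of 50 genes raised 8-fold, 9 of 50 raised 4-fold, 0 of 50 raised 2-fold and 1 unchanged gene. With a dispersion of 0.02 (18334 genes), it called 50 of 50, 50 of 50, 24 of 50 and 0. The changed genes were drawn from those with a mean over 50 reads per mouse. These counts therefore do not cover members below that level. Intervals and read ratios cover counting error only. Where nothing says that libraries of a mouse came from separate aliquots, they share their source.

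Named members were the 12 with the highest mean, receptors with a mean of at least 5, and Cxcl13. Members with a mean of at least 5, at least a 2-fold difference and no overlap between libraries were also named. Members and lists were chosen with earlier results of these data known. CpG islands (over 200 bases, at least 50% GC, observed over expected CpG at least 0.6) were found in mm9 sequence with GENCODE models, which also gave exon lengths. A member and a listed gene are counted but not reported here.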

Additional observations from a re-analysis of the deposited data

Results flagged for a closer look

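Among the 41 members for which the 5 LBR-null libraries could be examined for a value far from the rest, 2 had one, and chance flags about 1 in 20 groups. Libraries of a mouse are not independent. Cxcl2, a neutrophil-attracting ligand, had 19.5 normalized counts in 1 library of mouse 4001 (the first) and 0.860 to 1.82 elsewhere among the LBR-null libraries, and it was listed at 0 in both WT libraries. Set against 3 reads over the WT libraries, its 22 LBR-null reads were at least 3.27-fold higher, but the 5 reads that remain without that library are at 0.887 of this limit. Ccl22 was at 1.15 in the same library, which is a single read, and it had no read in 4 LBR-null libraries.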

How the results depend on the processing

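All values rest on 1 WT mouse and on 3 LBR-null mice, and members near 5 normalized counts rest on few reads. No paired analysis was possible because the replicate numbers name libraries, of which mouse 4001 and the WT mouse share numbers 1 and 2, and nothing ties such libraries to each other. The WT mouse was not left out, as no WT value would remain.

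Of 489 values of the 28 named members under 18 alternatives, 469 kept their direction and side of the threshold, 13 passed it in addition, and 7, all of Cxcr5, changed sign. Cxcr5 (0.02) was at -0.0085 with TMM scaling, -0.0063 in limma on 7 libraries, and from -0.26 without mouse 4002 to 0.39 without mouse 4001 when a mouse or library was left out.

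Members at least 2-fold higher numbered 10, and 4 with a pseudocount of 5 (9 to 11 leaving out a mouse or library). Those 2-fold lower numbered 16, and 8 with that pseudocount (10 to 17, lowest without WT replicate 2). Members entirely above WT numbered 5 (5 to 8, highest without mouse 4007) and 11 with mouse 4002 alone, and those entirely below 15 (15 to 23, highest without WT replicate 1) and 24 with mouse 4002 alone, where fewer libraries have to lie on one side. Called members were 0 higher (0 to 1) and 1 in DESeq2, and 0 lower (0 to 6, highest without mouse 4001), 2 in DESeq2 and 1 in limma on 7 libraries. At an unadjusted p under 0.05, 4 were higher (3 to 4) and 8 lower (4 to 11, lowest without mouse 4007), against 1 and 3 with a minimum mean of 20, which leaves fewer genes, and 5 lower in DESeq2. The median log2 difference of -0.60 was -0.48 with a minimum of 20 and -0.40 with mouse 4002 alone (-0.75 without WT replicate 1 to -0.45 without LBR-null replicate 2). Apart from those set down to fewer libraries or genes, the cause of these shifts was not tested.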

Other observations

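Several members varied between mice or between libraries of a mouse, and they were picked out after their values were seen. Ccl24, an eosinophil attractant, was at 24.1 and 13.3 in mouse 4001, at 0 in mice 4002 and 4007, and at 9.45 and 6.33 in the WT mouse. Ccl3, a macrophage product, was at 15.8 and 23.7 in mouse 4007, at 2.66 to 6.89 in the other LBR-null libraries, and at 8.66 and 4.52 in the WT mouse. Cxcl17, a mucosal ligand, was at 14.9 and 0.887 in the libraries of mouse 4001 and at 8.66 and 0.905 in those of the WT mouse. Ccr3, the eosinophil receptor, had 20 reads in the LBR-null libraries and 1 in the WT libraries, a ratio of 8.91 (95% exact interval 1.43 to 369). Ccr8, a receptor of regulatory T cells, had 12 and 1, a ratio of 5.35 (95% exact interval 0.791 to 228), and 5 of the 12 came from each library of mouse 4001.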
